A study of Mus musculus with 6 samples.

Results

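The 4 STEAP metalloreductase genes Steap1, Steap2, Steap3 and Steap4 and 6 genes of iron uptake, storage, export and sequestration (Tfrc, Slc39a14, Fth1, Ftl1, Slc40a1 and Lcn2) were followed in 4T1 cells, a mouse mammary carcinoma line. These 10 of the 48587 genes in the deposited counts were selected by name after the difference between the groups was already known, so their values are given as a description and carry no test. RNA came from cells stably transfected with full-length Mettl7a1 cDNA in the pBICEP-CMV-2 vector, whose product carries a FLAG tag (METTL7A1 group, 3 libraries), and from mock cells (3 libraries). METTL7A1 is a putative methyltransferase, and the comparison asks how its expression alters the transcriptome of these cells. Both groups are one cell line kept in culture, and the labels give the same G418 selection, 350 μg/ml, for both. The triplicates are described as biological, and whether each line was a pool or 1 clone is not given in the sources used here, so a difference between the transfected lines and an effect of METTL7A1 cannot be told apart.

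Total counts per library ranged from 18386780 to 28459338. Mettl7a1 itself had 6355, 11358 and 10398 counts in METTL7A1 replicates 1, 2 and 3, against 30, 30 and 29 in mock replicates 1, 2 and 3, a log2 fold change of 8.17 (SE 0.14). Levels are in cpm, counts relative to the TMM-scaled size of the library, and a gene was tested when it reached 1 cpm in at least 3 libraries, which 13166 genes did. The 6 epithelial markers (Epcam, Krt8, Krt18, Krt7, Krt14 and Cdh1) were counted in every library and summed to between 1747 and 2250 cpm, but Krt14 fell from 37.8 ± 1.16 to 9.79 ± 0.722 cpm (SD, n = 3; log2 fold change -1.94, adjusted p = 7.54e-08, edgeR quasi-likelihood test) and Krt7 rose (0.50, adjusted p = 0.00126). Of 6 macrophage markers, Ptprc, Adgre1, Itgam and Lyz2 had at most 8 counts in any library. Cd14 and Csf1r were tested and were higher in METTL7A1 (log2 fold changes 1.47 and 1.68, adjusted p = 8.90e-06 and 0.000506, edgeR quasi-likelihood test). Csf1r, at 0.483 to 0.984 cpm in mock, passed the filter only through the METTL7A1 libraries and could be tested only as a higher gene. The macrophage list summed to between 18.5 and 21.6 cpm in METTL7A1 and between 6.24 and 8.50 cpm in mock, and the neutrophil list to between 0.862 and 1.01 cpm and between 0.0403 and 0.273 cpm.

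STEAP proteins are membrane haemoproteins that pass electrons from NADPH to metal ions. STEAP2, STEAP3 and STEAP4 reduce ferric iron and cupric copper, whereas STEAP1 lacks the NADPH-binding domain of its relatives. Most cells take up transferrin-bound iron through the transferrin receptor, reduce it in the endosome, move it to the cytosol and store the excess in ferritin, and ferroportin is the known route of iron export. Iron regulatory proteins bind stem-loops called iron-responsive elements in the mRNAs of ferritin, ferroportin and the transferrin receptor, and thereby tie their translation or stability to the iron of the cell.

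Every METTL7A1 library had more mRNA of each of the 4 STEAP genes and of Lcn2 than every mock library, whereas Tfrc, Slc39a14, Fth1 and Ftl1 overlapped between the groups. Steap4 and Lcn2 differed most, by 18.0-fold and 5.54-fold. Of the 9 genes that were tested, 4 had an adjusted p under 0.05 (Steap1, Steap2, Steap4 and Lcn2, each higher in METTL7A1), where 42.1% of all tested genes did in either direction and 21.1% were higher. Steap4 and Lcn2 also passed the thresholds of the study (adjusted p under 0.01 and a log2 fold change over 1.5 in either direction), which 2.48% of tested genes passed. In 5 of the 9 the groups did not overlap in cpm, against 51.6% of all tested genes. Steap4, at 0.161 to 0.330 cpm in mock, passed the filter only through its METTL7A1 libraries and could enter these counts only as a higher gene. For this reason, and since the selection used this contrast, nothing is read from these counts. In bulk RNA, fewer cells with a transcript and less of it per cell cannot be told apart.

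**Figure D1:**
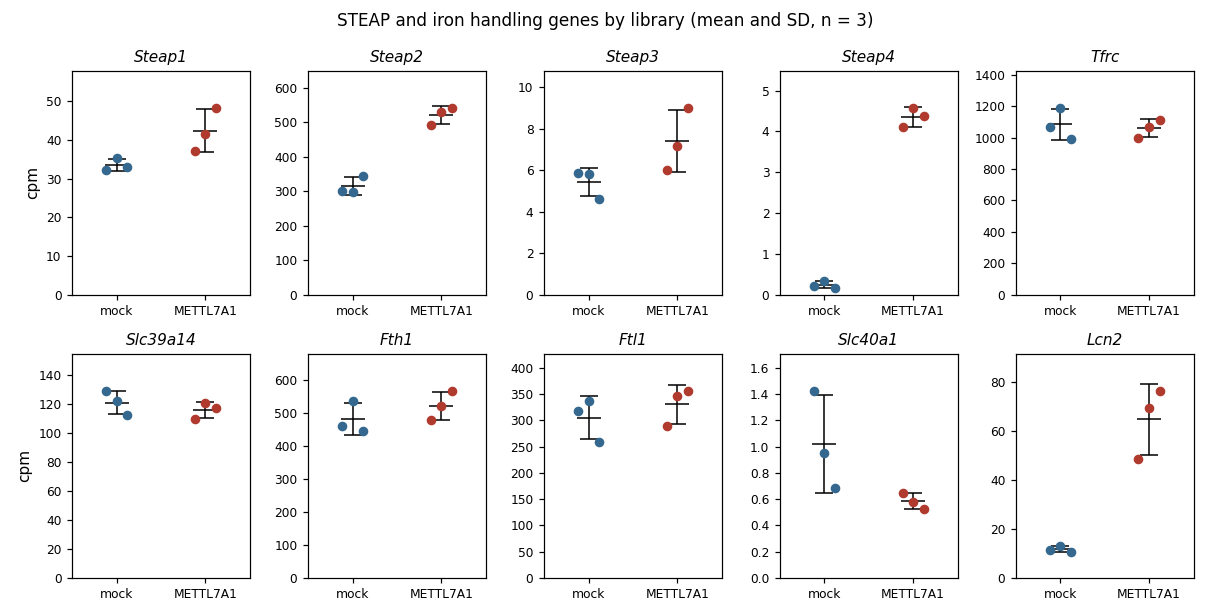
Level in cpm (vertical axes, each from 0) of the 10 genes in the 3 mock and 3 METTL7A1 libraries; points are libraries, horizontal bars the mean and whiskers the SD. The METTL7A1 points lie above all mock points for the 4 STEAP genes and Lcn2, below them for Slc40a1, and among them for Tfrc, Slc39a14, Fth1 and Ftl1.

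Steap4 encodes the family member that is induced by inflammatory cytokines in adipose tissue. It lies at chr5:7960457-7982213 on the plus strand (mm10). It had 76, 135 and 108 counts in METTL7A1 replicates 1, 2 and 3 (4.10, 4.57 and 4.38 cpm) and 4, 8 and 4 counts in mock replicates 1, 2 and 3 (0.219, 0.330 and 0.161 cpm). The transcript was thus close to the limit of detection in mock cells and low, but counted in every library, in METTL7A1 cells, with no overlap. Its log2 fold change was 4.17 (SE 0.27), the largest of the family, and rests on between 4 and 8 counts per mock library. With each library left out in turn and the same genes tested, it ranged from 3.94 to 4.51.

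Steap2, the STEAP gene with the highest mean length-scaled level in both groups, encodes a ferrireductase and cupric reductase of the plasma membrane and of endosomes (chr5:5664829-5694578, minus strand). It had 493, 530 and 541 cpm in METTL7A1 replicates 1, 2 and 3, and 300, 299 and 345 cpm in mock replicates 1, 2 and 3. The libraries of a group lay close together, and the gap between the groups was wider than the range within either. Steap2 was 1.66-fold higher in METTL7A1 (log2 fold change 0.73, SE 0.09).

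Steap1, which forms complexes with its relatives, lies beside Steap2 on the same strand (chr5:5736317-5749326). Its levels were 37.3, 41.6 and 48.3 cpm in METTL7A1 replicates 1, 2 and 3, and 32.3, 35.4 and 33.0 cpm in mock replicates 1, 2 and 3. The groups did not overlap, but the lowest METTL7A1 library was nearer to the highest mock library than to the highest of its own group. The log2 fold change was 0.34 (SE 0.10). It fell outside an adjusted p of 0.05 without METTL7A1 replicate 2 (0.35), without METTL7A1 replicate 3 (0.24) or without mock replicate 1 (0.33).

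Steap3, the ferrireductase of erythroid endosomes that acts on iron released from transferrin, was just outside the threshold of 0.05, and Steap1 was the gene just inside it. Its levels were 6.04, 7.18 and 9.002 cpm in METTL7A1 replicates 1, 2 and 3 and 5.85, 5.82 and 4.63 cpm in mock replicates 1, 2 and 3 (chr1:120224386-120272705, minus strand). Replicate 1 of METTL7A1 was barely above the highest mock library. The log2 fold change was 0.46 (SE 0.17), and without METTL7A1 replicate 1 it was 0.59 and within the threshold. With any other library left out Steap3 stayed outside the threshold, and its value was lowest without METTL7A1 replicate 3 (0.30).

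Scaled to exon length, which allows levels of different genes to be compared, the 4 STEAP genes together reached 78.0, 85.3 and 92.0 cpm per kb in METTL7A1 replicates 1, 2 and 3 and 54.9, 57.4 and 59.4 cpm per kb in mock replicates 1, 2 and 3. Steap1 and Steap2 made up nearly all of this sum in both groups. The share of Steap2 was 54.1% to 58.1% in METTL7A1 and 47.8% to 53.3% in mock, and that of Steap1 was 38.9% to 42.7% and 45.2% to 50.2%. Steap4 accounted for 1.51% to 1.70% of the sum in METTL7A1 and for 0.0859% to 0.182% in mock, so the gene with the largest fold change contributed little to the family total. The share of Steap3 overlapped between the groups (1.37% to 1.73% and 1.38% to 1.89%).

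The 10 genes spanned more than 3 orders of magnitude in length-scaled level. In mock cells the order was Fth1 (392 ± 39.6 cpm per kb, SD, n = 3), Ftl1 (315 ± 42.4), Tfrc (208 ± 18.8), Steap2 (28.9 ± 2.43), Steap1 (27.3 ± 1.33), Slc39a14 (23.3 ± 1.58), Lcn2 (12.8 ± 1.34), Steap3 (0.962 ± 0.123), Slc40a1 (0.302 ± 0.111) and Steap4 (0.0750 ± 0.0272). Steap2 and Steap1 overlapped there (27.4 to 31.7 and 26.2 to 28.8 cpm per kb), and no other neighbours in the order did. In METTL7A1 cells Lcn2 (70.8 ± 15.8 cpm per kb) stood above Steap2 (47.9 ± 2.32), Steap1 (34.5 ± 4.51) and Slc39a14 (22.3 ± 1.10). Steap4 (1.38 ± 0.0758) and Steap3 (1.31 ± 0.265) overlapped in METTL7A1 cells, and both were above Slc40a1 (0.173 ± 0.0178).

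**Figure D2:**
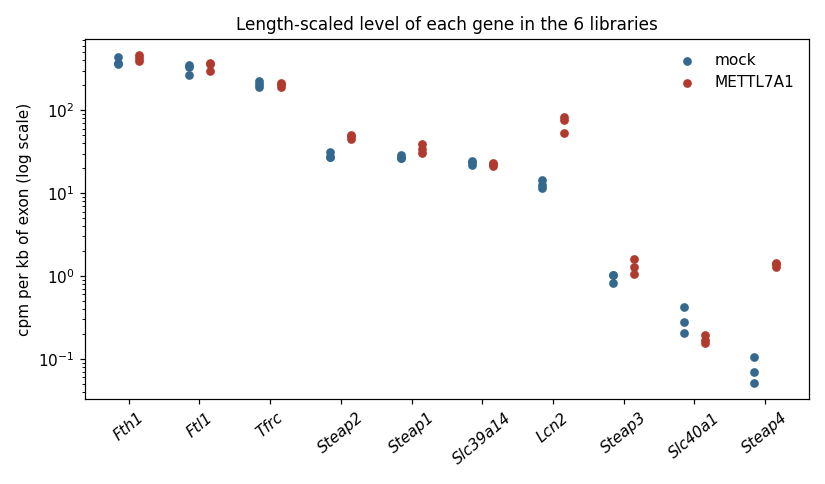
Length-scaled level in cpm per kb of exon (vertical axis, log scale) of each gene, ordered by its mean in mock cells; each point is 1 library, mock on the left and METTL7A1 on the right of each pair. Steap4 moves from the lowest place, at 0.0510 to 0.105 cpm per kb in mock, to 1.30 to 1.45 cpm per kb in METTL7A1, beside Steap3.

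Steap2, Steap1 and Steap4 share a stretch of chromosome 5. The end of Steap2 and the start of Steap1 are 41.7 kb apart, and Steap4 begins 2211 kb beyond Steap1. Within 4000 kb on each side of the start of Steap4, 27 other genes were tested, of which 4 were higher and 4 lower at an adjusted p under 0.05, and their median log2 fold change was -0.09. The median over the 40 nearest tested neighbours was -0.08 for Steap1 and Steap2 and -0.07 for Steap4, so set against their neighbourhood these genes differed by slightly more than their own fold changes.

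The direct neighbour of Steap4, Sri, which encodes the calcium-binding protein sorcin, had a log2 fold change of -0.15 (SE 0.09, adjusted p = 0.211). Beyond it lies Adam22, a gene chosen after its values were seen, which encodes a membrane protein with a disintegrin domain. Adam22 had 47, 43 and 41 counts in METTL7A1 replicates 1, 2 and 3 and 1, 1 and 7 counts in mock replicates 1, 2 and 3. Its groups did not overlap, and its log2 fold change was 3.74 (SE 0.49, adjusted p = 0.000148). Adam22 was under 1 cpm in every mock library. It passed the filter only through the METTL7A1 libraries and could be tested only as a higher gene. Abcb1a, a drug efflux transporter also chosen after its values were seen, rose as well (1.31, SE 0.31, adjusted p = 0.00542), while its adjacent paralogue Abcb1b fell by 0.44 on the log2 scale (SE 0.07, adjusted p = 0.000525). The mean of Abcb1a was 0.609 cpm in mock, under the level of the filter, and 1.52 cpm in METTL7A1, so the same limit may hold for it. The 2 paralogues are alike in sequence, so reads could be split between them.

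**Figure D3:**
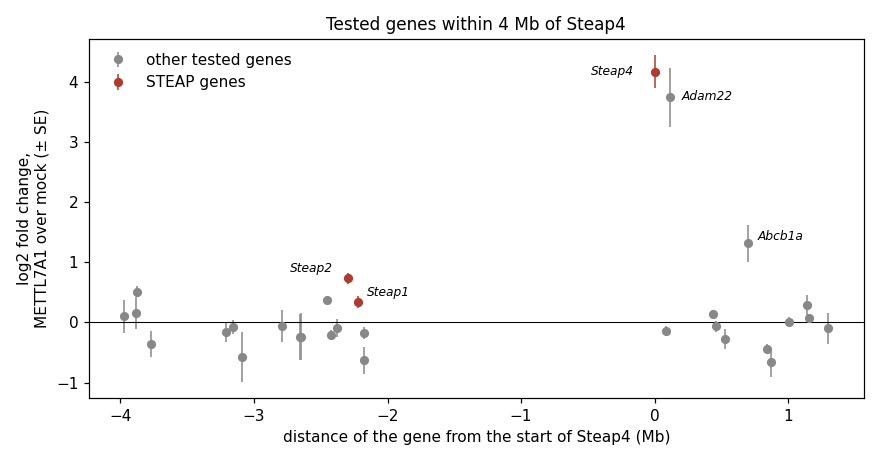
Log2 fold change of METTL7A1 over mock (vertical axis, whiskers ± SE) against the distance of each tested gene's start from the start of Steap4 in Mb (horizontal axis). Steap4 (4.17) and Adam22 (3.74) stand far above the other points, most of which lie near 0.

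Lcn2 encodes lipocalin 2, a secreted protein that binds siderophores, the iron carriers of bacteria, and that inflammatory cytokines induce in epithelia. Its levels were 48.6, 69.5 and 76.2 cpm in METTL7A1 replicates 1, 2 and 3 (902, 2054 and 1880 counts) and 11.5, 13.0 and 10.6 cpm in mock replicates 1, 2 and 3 (210, 316 and 264 counts). Even the lowest METTL7A1 library was far above every mock library, although METTL7A1 libraries differed among themselves by 1.57-fold. The log2 fold change was 2.47 (SE 0.16) and lay between 2.33 and 2.64 with each library left out and the same genes tested. Lipocalin 2 is also a granule protein of neutrophils. The neutrophil markers Ly6g, Mpo, Elane and Camp had at most 1 count in any library and S100a9 at most 3, whereas S100a8 had 14, 22 and 20 counts in METTL7A1 and 4, 3 and 1 in mock replicates.

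Lcn2 and Steap4 were the 2 genes that differed most, and their promoters are shown to display which letters of 3 inflammation-related motifs they hold. RefSeq sequences (GRCm38.p6, from 250 bases before to 50 after the start) were found for 8 of the 10 genes. Capitals mark matches, on either strand, to the NF-κB consensus, to TTGNGNAA (C/EBP) and to TTCNNNGAA (STAT). The motifs were chosen after the sequences had been seen.
Steap4 promoter, chr5:7960222-7960521, plus strand: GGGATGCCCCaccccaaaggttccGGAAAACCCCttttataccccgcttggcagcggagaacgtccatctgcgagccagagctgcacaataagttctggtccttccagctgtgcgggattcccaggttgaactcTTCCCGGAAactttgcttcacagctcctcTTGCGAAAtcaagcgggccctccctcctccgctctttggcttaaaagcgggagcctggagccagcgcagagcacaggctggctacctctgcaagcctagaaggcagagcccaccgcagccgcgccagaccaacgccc
Lcn2 promoter, chr2:32387690-32387989, minus strand: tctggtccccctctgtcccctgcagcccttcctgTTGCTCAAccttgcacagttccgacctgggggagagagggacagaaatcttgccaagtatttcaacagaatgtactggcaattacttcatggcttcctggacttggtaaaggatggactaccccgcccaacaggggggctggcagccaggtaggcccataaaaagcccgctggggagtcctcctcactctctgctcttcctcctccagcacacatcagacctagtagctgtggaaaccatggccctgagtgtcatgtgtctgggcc
The Steap4 window held NF-κB matches at positions -250 and -226 from the start, a STAT match at -116 and a C/EBP match at -87, none overlapping another. The Lcn2 window held 1 C/EBP match, at -216. Of 32851 promoters of the same length, 8.46% held the NF-κB consensus, 13.3% the C/EBP and 8.30% the STAT letters. Matches were also present in promoters of Steap2 and Steap3 (NF-κB, and STAT in Steap2), Ftl1 (NF-κB and C/EBP) and Fth1 (C/EBP), and those of Steap1 and Tfrc held none of these letters. Steap2, Steap3, Fth1 and Tfrc had more than 1 promoter window each, whereas the shares above are per single promoter. In Steap2, Steap3 and Fth1 only some of the windows held a match, and the NF-κB and STAT matches of Steap2 lay in different windows. A match describes letters and not binding.

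Tfrc encodes the transferrin receptor, through which cells take up most of their iron, and was the third most abundant of the 10 genes by length-scaled level (chr16:32608920-32632794, plus strand). Its levels were 998, 1067 and 1112 cpm in METTL7A1 replicates 1, 2 and 3, and 1069, 1188 and 993 cpm in mock replicates 1, 2 and 3. The highest and the lowest library were both mock libraries. The log2 fold change was -0.03 (SE 0.10).

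Slc39a14 encodes ZIP14, a carrier of non-transferrin-bound iron, zinc and manganese that inflammation induces in liver (chr14:70303469-70351425, minus strand). It had 110, 121 and 117 cpm in METTL7A1 replicates 1, 2 and 3 and 129, 122 and 113 cpm in mock replicates 1, 2 and 3. The groups overlapped, with a log2 fold change of -0.06 (SE 0.07).

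Ferritin, the cytosolic iron store, is built from the heavy chain, a ferroxidase, and the light chain, which aids mineral formation. Fth1 had 479, 520 and 565 cpm in METTL7A1 replicates 1, 2 and 3 and 458, 535 and 446 cpm in mock replicates 1, 2 and 3. Ftl1 (chr7:45457944-45459884, minus strand) had 288, 347 and 355 cpm in METTL7A1 replicates 1, 2 and 3 and 319, 337 and 259 cpm in mock replicates 1, 2 and 3. Both chains overlapped between the groups, with log2 fold changes of 0.12 (SE 0.10) for Fth1 and 0.12 (SE 0.11) for Ftl1. The ratio of Fth1 to Ftl1 counts was 1.58 ± 0.0825 (SD, n = 3) in METTL7A1 and 1.58 ± 0.142 in mock, so the balance of the chains differed by less than the spread between libraries.

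Ferritin genes have many processed copies. In the deposited table Fth1 was the only gene listed on 2 chromosomes: 4 intervals on chromosome 19 (chr19:9982703-9985092, plus strand) and 1 of 358 bases on chromosome 8 (chr8:86915157-86915514), which made up 29.2% of its listed length. Its count therefore pools both places, and with the length of chromosome 19 alone its level was 602 cpm per kb in METTL7A1 and 554 in mock. Copies listed as genes of their own, 1 of Fth1 and 3 of Ftl1, summed to at most 25 and 70 counts per library, no more than 0.226% and 0.682% of the parent gene.

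Ferritin and transferrin receptor are regulated in opposite directions by iron. Through its iron-responsive elements ferritin is controlled at translation, so a ratio of mRNA levels does not measure the iron of the cell. The length-scaled sum of Fth1 and Ftl1 mRNA divided by that of Tfrc was 3.59, 3.82 and 3.87 in METTL7A1 replicates 1, 2 and 3. It was 3.42, 3.44 and 3.31 in mock replicates 1, 2 and 3. The METTL7A1 ratios were all above the mock ratios, by a small margin, although neither ferritin chain nor Tfrc separated the groups alone. The ratio uses the listed length of Fth1 and was chosen with the values known, so it is a description.

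Slc40a1 encodes ferroportin (chr1:45908068-45925582, minus strand), and was below the filter on low counts. It had 12, 17 and 13 counts in METTL7A1 replicates 1, 2 and 3 (0.647, 0.576 and 0.527 cpm) and 26, 23 and 17 counts in mock replicates 1, 2 and 3 (1.42, 0.949 and 0.684 cpm). On the cpm scale the METTL7A1 libraries were all below the mock libraries, the opposite order to the STEAP genes, but the nearest libraries of the 2 groups were 0.684 and 0.647 cpm. The log2 ratio of the mean cpm was -0.80, and in a fit without the filter its log2 fold change was -0.74 and did not pass an adjusted p of 0.05. At this depth a difference in ferroportin was poorly resolved: the ratio lay between -1.02 and -0.49 when each library was left out.

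Hairpins of the iron-responsive type were looked for in the mm10 transcripts of GENCODE M21, because ferritin, ferroportin and transferrin receptor are known to share them. The pattern was a C, 5 bases, the loop CAGNGN and 5 bases pairing with the first 5, G-T pairs allowed. It was found in 4 of the 10 genes, and in 984 of 21877 protein-coding genes (4.50%). Capitals mark the loop.
Fth1, 5′ UTR, chr19:9982733-9982759, plus strand: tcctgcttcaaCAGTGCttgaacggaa
Ftl1, 5′ UTR, chr7:45459780-45459806, minus strand: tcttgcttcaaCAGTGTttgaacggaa
Slc40a1, 5′ UTR, chr1:45925466-45925492, minus strand: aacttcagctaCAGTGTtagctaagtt
Tfrc, 3′ UTR, chr16:32631161-32631187, plus strand: tttatcagtgaCAGAGTtcactataaa
Tfrc, 3′ UTR, chr16:32631220-32631246, plus strand: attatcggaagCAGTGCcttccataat
Tfrc, 3′ UTR, chr16:32631599-32631625, plus strand: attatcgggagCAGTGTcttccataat
Tfrc, 3′ UTR, chr16:32631664-32631690, plus strand: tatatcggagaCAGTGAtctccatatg
Tfrc, 3′ UTR, chr16:32631711-32631737, plus strand: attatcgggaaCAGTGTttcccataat
The hairpin lies before the coding sequence in ferritin and ferroportin, where binding is known to block translation, and in 5 copies after it in Tfrc, where binding is known to protect the mRNA. None of the STEAP genes, Lcn2 or Slc39a14 held the pattern. Fth1, Ftl1 and Tfrc, which hold it, overlapped between the groups in mRNA level, whereas the METTL7A1 libraries lay below the mock libraries for Slc40a1, which also holds it. Slc39a14, which does not, overlapped as well.

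Beyond the 10 genes, 43 other genes of iron and haem metabolism were in the table and 30 were tested; Flvcr1 was not analysed here. Of these 30, 8 were higher in METTL7A1, where 21.1% of all tested genes were, 8 were lower, where 21.0% were, and 14 did not pass. Their median log2 fold change was 0.08, against -0.03 over all tested genes. This list too was drawn up with earlier results of these data known, so its counts are a description. The adjusted p values that follow are from edgeR's quasi-likelihood test over all 13166 genes.

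Export and uptake were each represented by 1 tested gene. Cp encodes ceruloplasmin, the copper ferroxidase that oxidises iron leaving the cell, and was the only gene of the list past the study thresholds. It had 129, 135 and 118 cpm in METTL7A1 replicates 1, 2 and 3 and 26.1, 28.3 and 28.6 cpm in mock replicates 1, 2 and 3. The rise was 4.59-fold (log2 fold change 2.20, SE 0.08, adjusted p = 1.35e-08) and every METTL7A1 library was far above every mock library. Cp overlaps exons of Hps3 on the other strand, a gene with 599 to 875 counts and a log2 fold change of -0.27. Slc11a2, which encodes DMT1, the carrier that moves ferrous iron out of endosomes, rose by 0.52 on the log2 scale (SE 0.07, adjusted p = 0.000151), from 65.6 ± 4.10 cpm to 94.2 ± 1.56 cpm (SD, n = 3). The median of its chromosomal neighbours was 0.31, and with an offset for it the value for Slc11a2 was 0.22 (adjusted p = 0.0346). Tfr2, Trf, Heph and Hamp had no count in any library.

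Among genes of storage, Ncoa4, the receptor that delivers ferritin to the lysosome, fell by 0.22 on the log2 scale (SE 0.08, adjusted p = 0.0423). This call was lost without any one of 5 libraries, all except mock replicate 3 (adjusted p 0.0667 to 0.170), and with an offset for the median of its chromosomal neighbours its log2 fold change was 0.012. The iron chaperone Pcbp1 had a log2 fold change of -0.01 (adjusted p = 0.930) and Pcbp2 one of 0.23 (adjusted p = 0.0871). Without mock replicate 3 Pcbp2 was at 0.39 (adjusted p = 0.00115), and with the same offset at -0.11 (adjusted p = 0.460). Pcbp2 overlaps exons of Map3k12 on the other strand, which had 400 to 814 counts and a log2 fold change of 0.41. Of the iron sensors, Fbxl5, the ubiquitin ligase subunit that degrades IRP2, rose by 0.27 (SE 0.07, adjusted p = 0.0125). Its adjusted p was 0.0596 without METTL7A1 replicate 2. Fbxl5 overlaps exons of Bst1 on the other strand, which had 31 to 254 counts against 2452 to 4755 for Fbxl5, and a log2 fold change of 2.20. The iron regulatory proteins themselves gave -0.06 for Aco1 (adjusted p = 0.580) and -0.01 for Ireb2 (adjusted p = 0.968), and Hfe, a partner of the transferrin receptor, gave 0.58 (SE 0.27, adjusted p = 0.109).

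Of 13 tested haem genes, 3 rose, 2 fell and 8 did not pass, a share of calls near the 42.1% of all tested genes. Slc48a1, which carries haem out of lysosomes, rose by 0.88 on the log2 scale (SE 0.09, adjusted p = 1.94e-05), and Hmox1, the inducible haem oxygenase that frees iron from haem, by 0.76 (SE 0.13, adjusted p = 0.000854). Hmox1 went from 7.22, 7.72 and 5.92 cpm in mock replicates 1, 2 and 3 to 11.5, 11.1 and 12.6 cpm in METTL7A1 replicates 1, 2 and 3, with no overlap. In the synthesis of haem, Alad, which makes porphobilinogen, fell by 0.98 on the log2 scale (SE 0.10, adjusted p = 2.22e-05), from 32.8 ± 3.84 to 16.6 ± 0.490 cpm. Alas1, the first enzyme, fell by 0.25 (adjusted p = 0.0395) and Ppox, a late enzyme, rose by 0.35 (adjusted p = 0.0353). Alas1 lost its call without METTL7A1 replicate 2 or 3 or mock replicate 1 or 2 (adjusted p 0.107 to 0.147), and Ppox without METTL7A1 replicate 1 or 2 or mock replicate 2 or 3 (0.0526 to 0.113). Slc48a1 overlaps Hdac7 on the other strand, which had 1389 to 2904 counts and a log2 fold change of 0.41. With the neighbour offset Slc48a1 had a log2 fold change of 0.58 (adjusted p = 0.000425).

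Of 8 tested genes of mitochondrial iron and iron-sulfur clusters, 5 fell and 2 rose, where 21.0% and 21.1% of all tested genes did. Glrx5, a glutaredoxin that passes on newly made clusters, fell by 0.71 on the log2 scale (SE 0.13, adjusted p = 0.00105). Isca1, which serves the assembly of larger clusters, fell by 0.54 (SE 0.15, adjusted p = 0.0118), and Iscu, the scaffold on which clusters form, by 0.50 (SE 0.12, adjusted p = 0.00589). The cysteine desulfurase Nfs1, which supplies the sulfur, rose by 0.45 (SE 0.08, adjusted p = 0.000771), and the iron importer Slc25a28 by 0.27 (SE 0.10, adjusted p = 0.0460). Slc25a28 was added after its values were seen. Nfs1 (377 to 841 counts) overlaps exons of Romo1 on the other strand. Romo1 had 283 to 524 counts and a log2 fold change of -0.02.

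Several of these calls depended on single libraries. Isca1 was lost without mock replicate 2 (adjusted p = 0.0557), and with the neighbour offset its log2 fold change was -0.07 (adjusted p = 0.745). Slc25a28 was lost without METTL7A1 replicate 1 or 2 or mock replicate 2 or 3 (0.0964 to 0.135). With DESeq2, Ncoa4 and Alas1 were not called (adjusted p = 0.0688 and 0.0633), and with the neighbour offset Alas1 had a log2 fold change of -0.02, Ppox an adjusted p of 0.0788 and Slc25a28 one of 0.0915. The same offset lowered Nfs1 to 0.23 (adjusted p = 0.0376). Nfs1, Glrx5 and Iscu kept their calls with every library left out.

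**Figure D4:**
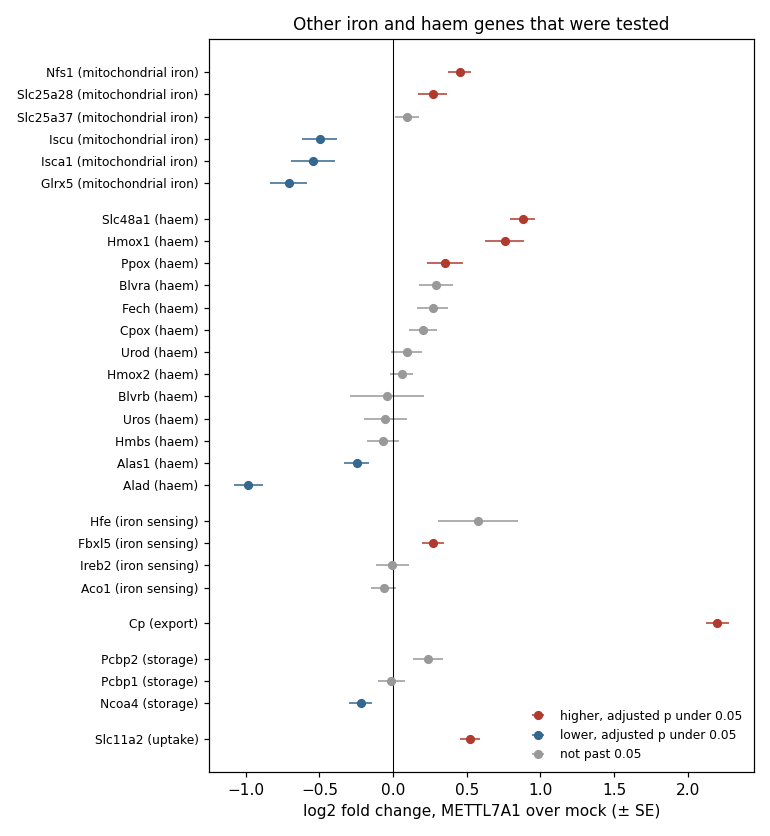
Log2 fold change of METTL7A1 over mock (horizontal axis, whiskers ± SE) of 28 of the 30 tested iron and haem genes that are not among the 10, grouped by role; red is higher, blue lower and grey not past an adjusted p of 0.05. Cp (2.20) lies far to the right, Alad (-0.98) farthest to the left, and Glrx5, Isca1 and Iscu lie left of 0.

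Lcn2, Steap4 and Slc39a14 are known to be induced by inflammatory cytokines, and 14 other genes of that kind were examined. This list was drawn up with earlier results of these data known. Its counts and median are therefore a description, and a response to cytokines was not tested. Of the 11 that were tested, 9 rose, 1 fell and 1 did not pass, where 21.1% of all tested genes were higher and 21.0% lower. The median log2 fold change was 0.54 against -0.03 over all tested genes. Tnf and Il1b, under 1 cpm in every mock library, passed the filter only through the METTL7A1 libraries. They could therefore enter these counts and this median only as higher genes. Complement C3 rose most clearly, from 115, 120 and 102 cpm in mock replicates 1, 2 and 3 to 474, 477 and 421 cpm in METTL7A1 replicates 1, 2 and 3 (log2 fold change 2.03, SE 0.09, adjusted p = 6.40e-08). Tnf, the cytokine itself, had 46, 61 and 51 counts in METTL7A1 replicates 1, 2 and 3 and 7, 5 and 5 in mock replicates 1, 2 and 3 (3.08, SE 0.31, adjusted p = 2.27e-05). Both were low or moderate in mock cells and separated the groups fully.

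The neutrophil-attracting chemokines Cxcl1 and Cxcl5 rose by 0.67 (SE 0.08, adjusted p = 6.31e-05) and 0.54 (SE 0.10, adjusted p = 0.00145), and Zc3h12a, an RNase that degrades inflammatory mRNAs, by 0.45 (SE 0.08, adjusted p = 0.00135). Tnfaip3, named after its values were seen, encodes the NF-κB inhibitor A20 and fell by 0.41 (SE 0.08, adjusted p = 0.00146), but with the neighbour offset its log2 fold change was -0.03 (adjusted p = 0.803). Slc39a14, given above, did not follow Lcn2 and Steap4. Without METTL7A1 replicate 2, and likewise without METTL7A1 replicate 3, 5 genes of this list were called in place of 10, as Tnf and Il1b then fail a filter that asks for 3 libraries and Cebpb, Cebpd and Socs3 miss the threshold (these genes are named after their values were seen). With the genes kept over all 6 libraries between 7 and 10 were called. The macrophage markers Cd14 and Csf1r rose in the same libraries, while Ptprc and Adgre1 had at most 8 and 1 counts.

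Likeness was taken over the 6 libraries from log2 of cpm with 0.5 added, which exceeds the 0.161 to 0.330 cpm of Steap4 in mock. By this measure the tested genes most like Steap4 were Atf3, Oasl1, Entpd3, Snx30 and Il1a, with Pearson correlations from 0.9988 to 0.9996. For Lcn2 they were Mal2, Gas2l3, Dcbld2, Tmem176b and Serinc3, from 0.9990 to 0.9994. All of these were higher in METTL7A1. The 6 points fall into 2 groups, so that 1303 genes correlated with Steap4 above 0.95 and 1209 with Lcn2, and the order among them is a description of likeness only.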

How the data were processed

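Total RNA of 6 libraries (3 METTL7A1, 3 mock; groups and replicate numbers from the sample titles) was prepared with a stranded, ribosomal RNA-depleted Illumina kit. The authors trimmed reads with BBDuk, mapped the pairs to mm10 using STAR 2.5.3a, ran featureCounts on the Ensembl annotation, and deposited the resulting counts without normalization. How strand and multiply mapping reads were counted is not given in the sources used here. Exon lengths are those of the table.

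The filter of the study (1 cpm or more in 3 or more libraries) left 13166 genes, which were scaled by TMM and compared with the quasi-likelihood test of edgeR 4.0.16 (R 4.3.3), without covariates and with Benjamini-Hochberg adjustment over all of them. An SE is the log2 fold change divided by the square root of F. The script was tested on simulated data. The 10 genes and all lists were chosen with earlier results of these data known. Named are the 10 genes, every tested gene of iron uptake, storage, export and sensing, the 5 called genes with the smallest p each of haem, of mitochondrial iron and of the cytokine-inducible list, and the 5 genes most like Steap4 and Lcn2; others are marked as chosen after their values were seen, and some members of the lists are counted but not reported here by name. The base of the study's log fold change was taken as 2. Alternatives were RLE and upper quartile scaling, no filter, at least 10 counts in every library, DESeq2 1.42.0, limma 3.58.1 (voom), each library left out, replicate number as a block, removal of the 20 most abundant genes, an offset for the median of the 40 nearest neighbours and ferritin summed with its copies. The deviations of same-numbered libraries correlated by -0.16, 0.23 and -0.39. Differently numbered libraries were not compared, so these values cannot show whether replicate numbers pair the samples.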

Additional observations from a re-analysis of the deposited data

How the results depend on the processing

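Of the 10 genes, 4 were called; over the alternatives this was between 2 and 5. Counts fell to 2 without METTL7A1 replicate 2 or 3, since Steap4 then fails a filter that asks for 3 libraries and Steap1 misses the threshold; with the genes kept over all 6 libraries, an alternative added after seeing the data, 3 to 5 were called. For the same reason the count past the study thresholds was 1 to 2 with a library left out and 1 with at least 10 counts in every library, and 2 whenever the genes of the full filter were kept. Steap2, Steap4 and Lcn2 kept their direction and call wherever tested. Steap3 was called with upper quartile scaling, voom, no filter and without the 20 most abundant genes (log2 fold changes 0.46, 0.46, 0.49 and 0.50). It was not called with RLE scaling, at least 10 counts in every library or DESeq2 (0.46 in each). The replicate block (0.45) and the neighbour offset (0.35) gave no call for Steap3 either.

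Of the other iron genes, 16 were called, and 9 to 14 with a library left out (10 to 14 with the full filter). Cytokine-inducible genes numbered 10, and 5 to 10 with a library left out (7 to 10 with the full filter). With the replicate block 4 of the 10 genes, 2 past the study thresholds, 13 other iron genes and 7 cytokine-inducible genes were called. The 1 reversal was Ncoa4, which changed by 0.012 on the log2 scale once the neighbours were offset. Among single genes, 870 comparisons with an alternative kept direction and side of the threshold, 43 (of 10 genes) had the other sign but were called under neither, 101 lost the call and 26 gained one; causes were not tested. Depth limits Slc40a1 and Steap4 in mock cells, where 1 count was worth between 0.0403 and 0.0547 cpm.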
